A study of Mus musculus with 37 samples.

Results

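The 34 genes described here are markers of microglia, the resident macrophages of the brain. They were chosen by name from a list of microglial markers, and the rule was applied to the count table through the Ensembl identifier of each gene. All 34 were found among the 56980 rows of the table, and all 34 passed the filter on low counts, which left 19332 genes for testing. The 34 genes hold no values from the comparisons in their definition, but the list was set with earlier results on these libraries known.

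The mice were wild-type C57BL/6J males. Treatment of the adolescents started on postnatal day 25 and that of the adults on postnatal day 55. Within each age the mice either stayed on water or received oral antibiotics, whose agents the labels do not name, and they were injected subcutaneously with saline or with morphine at 15 mg/kg for 5 days. The study, per its title, concerned the medial prefrontal cortex, and the tissue label of every library reads brain, with no cell sorting. Age, drink and injection make 8 groups, and 35 of the 37 libraries entered the tests. These were 5 adolescent water saline, 5 adolescent water morphine, 3 adolescent antibiotics saline, 5 adolescent antibiotics morphine, 3 adult water saline, 5 adult water morphine, 5 adult antibiotics saline and 4 adult antibiotics morphine libraries. The labels do not say which libraries came from separate animals, so the p-values below measure only the spread between libraries.

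Microglia arise from yolk sac progenitors and depend on signalling through the receptor Csf1r, whose ligands are Csf1 and Il34. They survey the tissue with purine receptors such as P2ry12 and with the fractalkine receptor Cx3cr1, whose ligand Cx3cl1 is made by neurons. They tag synapses with the complement protein C1q and clear debris through receptors such as Trem2, and microglia of germ-free and antibiotic-treated mice have been a subject of gut-brain research.

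The transcription factor PU.1, encoded by the member Spi1, is a master regulator of macrophages and microglia and binds purine-rich letters built on GAGGAAG. Those 7 letters, on either strand, were present in 13 of the 33 RefSeq start-site windows (250 bases before to 50 bases after the start, GRCm38.p6) that the promoter table holds for 26 of the members, or 39.4% of them. Across all 32851 windows of the table the share was 13.6%. The 13 windows belong to 12 members, since Fcgr3 has 2 overlapping windows. The longer form GAGGAAGT, which contains the shorter form, was present in 12.1% of the members' windows and 3.2% of all windows. The ETS-IRF composite element, on which PU.1 and interferon regulatory factors such as Irf8 can bind together, was matched in 3.03% and 2.72%. A match of letters is a description of the sequence and does not show binding. Tmem119, Csf1r, Tyrobp, C1qa, Selplg, Gpr34, Spi1 and Bin2 are the members that were not matched to the promoter table.

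The 200 bases before the start are shown for the 5 members that were both called lower with antibiotics and held the motif in that stretch. They are written 5′ to 3′ on the strand of the gene, with the motif in capitals (GAGGAAG, or CTTCCTC where it lies on the opposite strand).
Fcrls, chr3:87263525-87263724, minus strand: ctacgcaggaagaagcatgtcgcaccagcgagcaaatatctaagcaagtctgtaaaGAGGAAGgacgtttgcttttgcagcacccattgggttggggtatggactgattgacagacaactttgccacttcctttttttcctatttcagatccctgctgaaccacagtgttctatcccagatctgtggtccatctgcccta
Itgam, chr7:128062440-128062639, plus strand: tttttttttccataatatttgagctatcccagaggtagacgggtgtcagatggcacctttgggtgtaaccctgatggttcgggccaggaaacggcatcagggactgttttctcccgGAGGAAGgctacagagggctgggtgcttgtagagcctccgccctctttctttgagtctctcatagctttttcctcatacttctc
Laptm5, chr4:130913116-130913315, plus strand: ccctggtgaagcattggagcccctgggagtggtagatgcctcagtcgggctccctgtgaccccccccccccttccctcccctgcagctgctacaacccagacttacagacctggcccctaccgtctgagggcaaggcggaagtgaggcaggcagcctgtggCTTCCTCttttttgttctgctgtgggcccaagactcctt
P2ry13, chr3:59210883-59211082, minus strand: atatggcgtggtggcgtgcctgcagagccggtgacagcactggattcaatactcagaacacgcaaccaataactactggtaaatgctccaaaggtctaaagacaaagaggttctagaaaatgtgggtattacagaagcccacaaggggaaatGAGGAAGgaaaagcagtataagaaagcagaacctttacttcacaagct
Trem2, chr17:48346201-48346400, plus strand: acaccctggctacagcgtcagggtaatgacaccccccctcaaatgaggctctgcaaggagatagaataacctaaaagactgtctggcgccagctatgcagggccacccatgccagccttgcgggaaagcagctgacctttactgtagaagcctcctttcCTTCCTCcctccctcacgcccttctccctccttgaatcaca
Counted from the start site, the first capital letter lies at -144 in Fcrls, -84 in Itgam, -39 in Laptm5, -48 in P2ry13 and -41 in Trem2. The position of the motif thus differs between these 5 stretches, and Laptm5 and Trem2 carry it on the opposite strand. Fcgr3, Ctss, Tgfbr1, C1qc, Hpgds and Ltc4s also held the motif in their windows and were not called with antibiotics. A link between the motif and the change with antibiotics was not tested.

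The 35 libraries held 10630727 to 31560468 counts, and the 2 left out held 25165 and 58764. The cortical excitatory marker Slc17a7 was at 1170 to 1940 CPM (a scale used for all levels, counts divided by the TMM-scaled library size and multiplied by 1000000) in every library used. Adolescent water saline replicate 1 stood apart: its summed striatal markers reached 1882 CPM and its myelin markers 20740 CPM, against medians of 348.5 and 2282 in its group. Pancreatic islet hormone transcripts made up 518 to 1140 counts in 7 libraries, all of them adolescent and found in each of the 4 adolescent groups. Counts of called members are given with and without replicate 1 where they rest on it, and a fit with a term for islet reads was among the alternatives.

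Divided by exon length, the most abundant members were the lysosomal protease Lgmn at 37.6 CPM per kilobase, the complement chain C1qa at 32.1, the lysosomal protease Ctss at 30.3 and the chain C1qb at 29.4. Csf1r followed at 16.1 CPM per kilobase, C1qc at 15.4 and P2ry12 at 12.7. At the low end were the integrin Itgam (CD11b) at 1.02, the transcription factor Irf8 at 0.641 and the leukocyte phosphatase Ptprc (CD45) at 0.157 CPM per kilobase. The order by length-scaled level is a description over 35 libraries, and neighbours such as Ctss and C1qb lie close together. The lengths are unions of all annotated exons, so a member with a long rare transcript, such as Ptprc at 18.3 kilobases, is placed low. In the annotation used for names, the span of Cx3cr1 overlaps those of Gorasp1, Csrnp1 and Xirp1 on the same strand and of Wdr48 and Ttc21a on the other. Itgam overlaps Gm49368 and Irf8 overlaps Gm20388 on the same strand, while P2ry12 and P2ry13 (Med12l), Gpr34 (Cask) and Csf1r (Hmgxb3) overlap a gene on the other strand. How the counting treated strand is not stated, so the levels of these members are uncertain to the extent that reads could fall in both genes.

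Summed over the 34 genes, the microglial signal was highest in saline-injected adolescents on water and lowest in morphine-injected adults on antibiotics. The 5 adolescent water saline libraries summed to 780.3, 748.2, 836.8, 731.3 and 729.6 CPM (765.3 ± 44.9, SD, n = 5). The 4 adult antibiotics morphine libraries summed to 626.8, 520.4, 633.1 and 546.8 CPM (581.7 ± 56.7, SD, n = 4). These groups did not overlap, and every adolescent water saline library was above every library of the other 7 groups. The other adolescents lay between them, at 680.3 ± 36.9 on water with morphine (SD, n = 5), 684.9 ± 36.6 on antibiotics with saline (SD, n = 3) and 620.6 ± 31.9 on antibiotics with morphine (SD, n = 5). The other adults were at 655.5 ± 33.0 on water with saline (SD, n = 3), 672.1 ± 25.8 on water with morphine (SD, n = 5) and 627.4 ± 29.1 on antibiotics with saline (SD, n = 5). Ordered by mean, each of these 7 groups overlapped its neighbours. Of the 34 members, 30 had their highest group mean in adolescent water saline and 22 their lowest in adult antibiotics morphine. The matching shares over all genes were not computed. Members also vary together within groups (mean pairwise correlation 0.29), so these counts are not separate observations. Fewer microglia and less of these RNAs in each microglial cell cannot be told apart in bulk tissue.

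**Figure D1:**
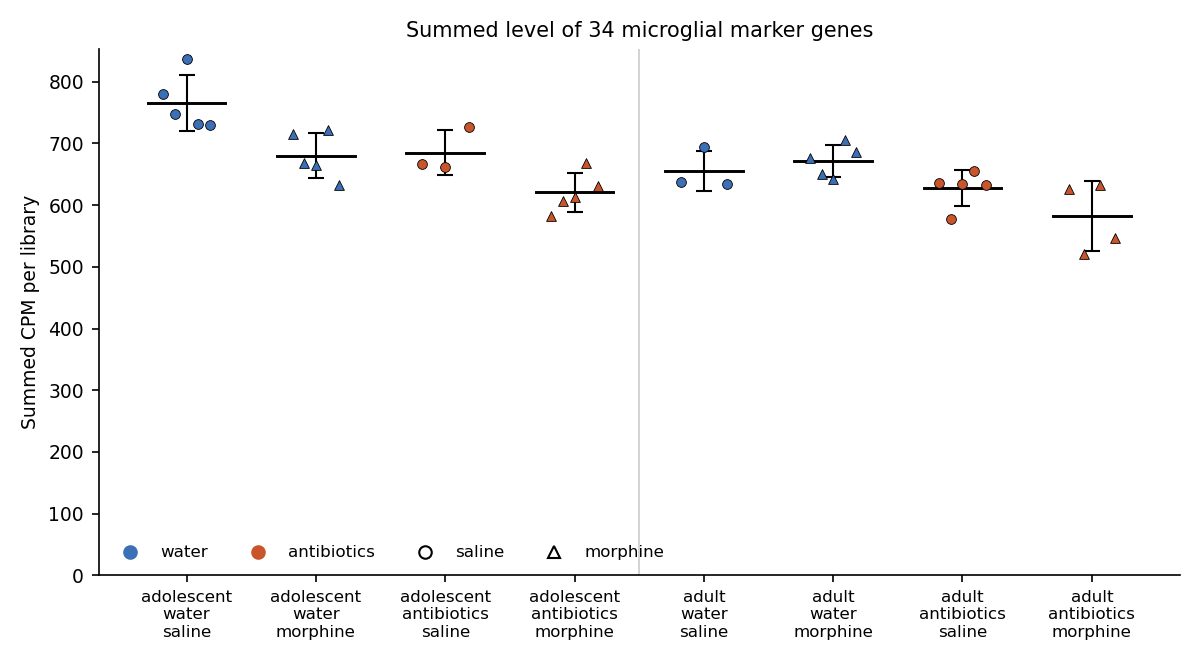
Summed level of the 34 microglial marker genes in each of 35 libraries, in TMM-scaled CPM (vertical axis, from 0), by group; horizontal lines are means and error bars are SDs. Adolescent water saline has the highest mean, 765.3, and adult antibiotics morphine the lowest, 581.7.

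Microglial markers were lower in mice on antibiotics. Averaged over the 4 strata of age and injection, 18 of the 34 members were lower with antibiotics than with water and 0 were higher (edgeR quasi-likelihood test, adjusted p under 0.05 over all genes tested). Of all genes tested, 5.05% were called lower and 5.16% higher in this comparison. The median log2 fold change of the members was -0.15, a fall of 10.2%, and that of all genes was 0.00, with quartiles of -0.08 and 0.07. Leaving out each library in turn gave 16 to 20 members lower, and 20 without adolescent water saline replicate 1. The 4 strata share no libraries, and 22 members had a fitted value below 0 in each of them, where 14.2% of all genes did. No member was above 0 in all 4 strata. Mitochondrial transcripts made up 4.743 ± 0.377% of counts on antibiotics and 4.862 ± 0.239% on water (SD, n = 17 and 18). In morphine-injected adolescents their share was lower in every library on antibiotics (4.186 to 4.812%) than on water (4.894 to 5.076%), and ribosomal protein transcripts were at 1.053% on antibiotics and 0.994% on water over all libraries. The part of RNA quality in the members' changes was not tested.

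The fractalkine receptor Cx3cr1 had the smallest adjusted p among the members in this comparison. It fell by 15.3% (log2 fold change -0.24, SE 0.03, adjusted p = 5.91e-06). Among saline-injected adolescents it was at 54.2, 47.3, 58.6, 50.8 and 51.3 CPM on water and at 45.7, 43.3 and 50.2 CPM on antibiotics. Those 2 groups overlapped. Among morphine-injected adolescents it was at 49, 45.9, 45.5, 49.3 and 43.1 CPM on water and 35.9, 38.7, 38.5, 44.4 and 40.2 CPM on antibiotics, and only the replicate at 44.4 reached into the water range. Saline-injected adults had 45.8, 46.7 and 45.5 CPM on water and 40, 37.4, 42, 38.4 and 37.5 CPM on antibiotics. Morphine-injected adults had 44.3, 43, 38.6, 44.6 and 43 CPM on water and 36.6, 32, 37.4 and 32 CPM on antibiotics. In both adult comparisons every library on antibiotics was below every library on water.

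The 3 largest falls among the members were those of Olfml3, Slc2a5 and Fcrls, all in the group of surface and secreted proteins typical of undisturbed microglia, of which 5 of 8 fell. Fcrls, an Fc receptor-like protein found on mouse microglia, fell by 25.8% (log2 fold change -0.43, SE 0.06, adjusted p = 1.76e-05). In saline-injected adolescents it was at 24.1, 29.6, 30.2, 25.4 and 25.4 CPM on water and 21.1, 20.8 and 24.1 CPM on antibiotics, and the ranges met at 24.1. In morphine-injected adolescents it was at 26.4, 22.8, 23.2, 23.6 and 21.3 CPM on water and 13.4, 17, 15.8, 17.3 and 17 CPM on antibiotics, with no overlap. In saline-injected adults the values were 17.9, 22.3 and 18.7 CPM on water and 15.1, 16.1, 16.6, 17.2 and 15 CPM on antibiotics, again with no overlap. In morphine-injected adults they were 17.7, 20.5, 18.7, 22 and 18 CPM on water and 11.7, 8.34, 18.6 and 12.6 CPM on antibiotics, where the replicate at 18.6 lay inside the water range. 

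Slc2a5, a fructose transporter, fell by 27.4% (-0.46 on the log2 scale, adjusted p = 0.000256). On water it was at 4.92, 5.6, 7.26, 6.15 and 5.66 CPM in saline-injected and 4.88, 4.85, 3.7, 4.5 and 2.99 CPM in morphine-injected adolescents, and at 4.24, 3.95 and 3.83 CPM and 4.48, 4.4, 3.67, 5.25 and 4.27 CPM in the adults of the same injections. On antibiotics it was at 3.82, 3.41 and 4.3 CPM and 2.62, 3.16, 3.49, 3.01 and 3.74 CPM in the adolescents and at 4.04, 2.26, 3.29, 3.78 and 2.83 CPM and 3.72, 2.8, 2.91 and 2.65 CPM in the adults. Water and antibiotics did not overlap in saline-injected adolescents and overlapped in the other strata. Olfml3, a secreted olfactomedin-like protein, fell by 27.8% (-0.47, adjusted p = 0.00216). Its libraries ran from 13 to 20.4 CPM on water and from 6.35 to 18 CPM on antibiotics.

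Tmem119, a transmembrane protein that separates microglia from other macrophages, fell by 14% (-0.22, SE 0.04, adjusted p = 0.000205). In adolescents on water it was at 19.8, 21.8, 25.2, 22.4 and 23.5 CPM with saline and 20.6, 20, 19.2, 21.2 and 18.8 CPM with morphine, and on antibiotics at 19, 19.8 and 20.1 CPM with saline and 16.6, 16.2, 18.8, 17.5 and 18.2 CPM with morphine. In adults on water it was at 19.7, 20.5 and 19.3 CPM with saline and 19.9, 18.6, 18.8, 19.2 and 21.3 CPM with morphine, and on antibiotics at 19, 18.2, 17.1, 20 and 18 CPM with saline and 16.8, 12.7, 16.7 and 14 CPM with morphine. Water and antibiotics did not overlap in morphine-injected adults, met at 18.8 CPM in morphine-injected adolescents and overlapped with saline at both ages. The adhesion ligand Selplg fell as well (-0.17, adjusted p = 0.00961). Siglech, a sialic acid receptor, was at -0.14 (adjusted p = 0.0672), Hpgds, a prostaglandin D synthase, at -0.11 (adjusted p = 0.356) and Ltc4s, the leukotriene C4 synthase, at 0.05 (adjusted p = 0.765), none of them past the threshold.

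**Figure D2:**
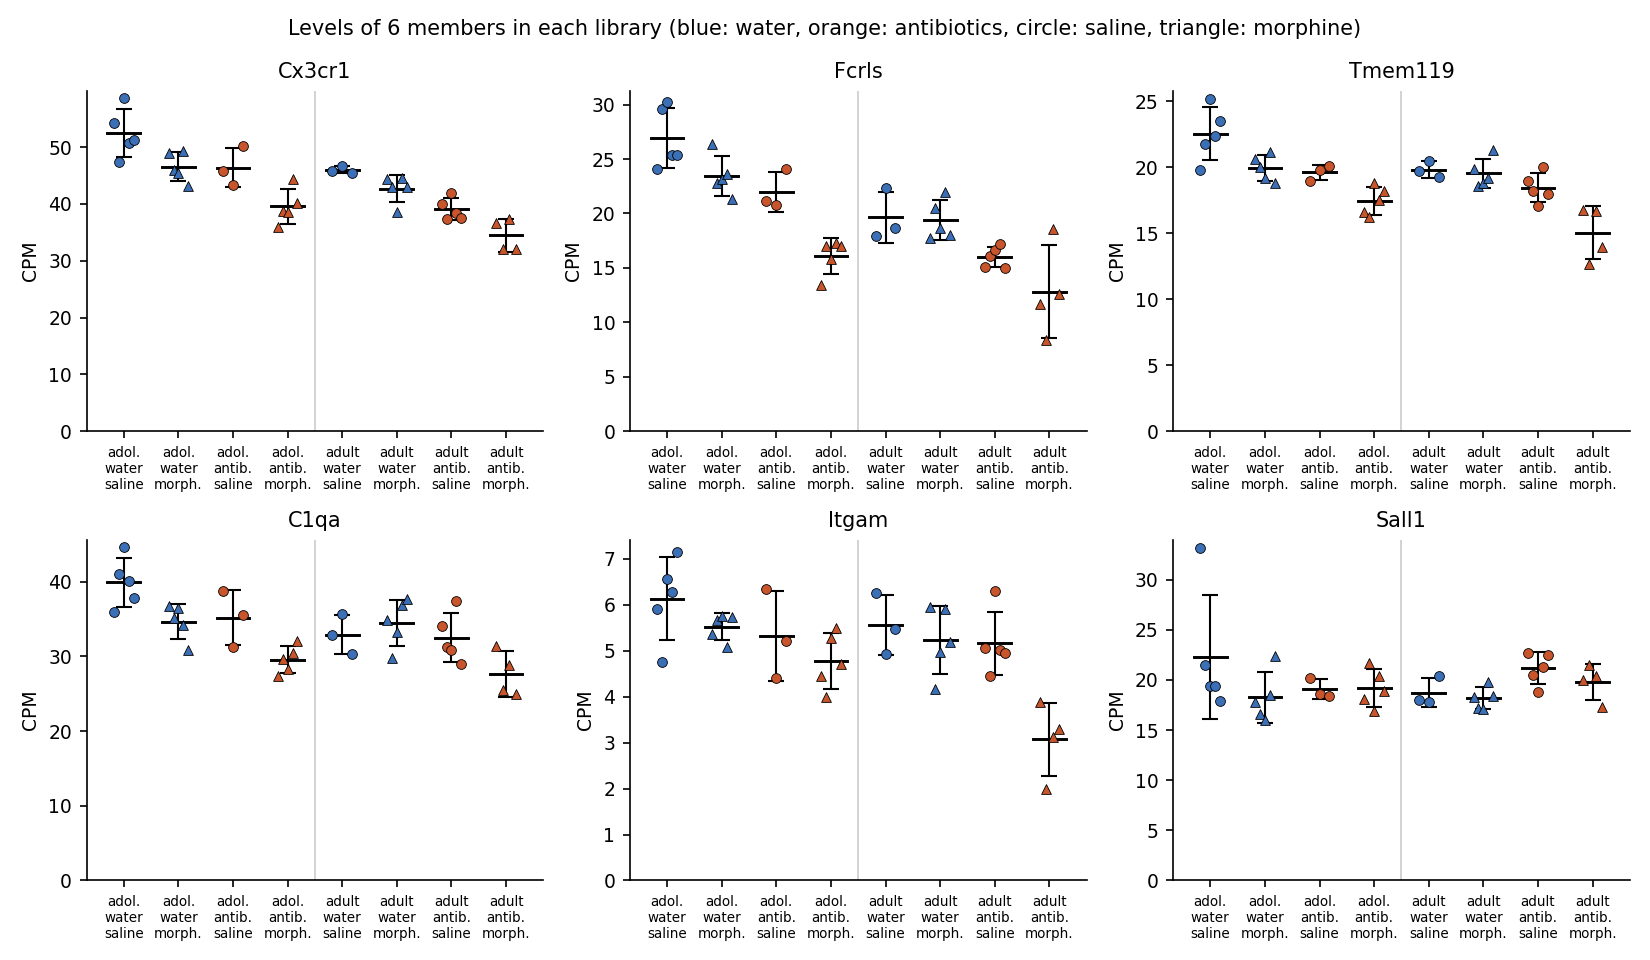
Level of Cx3cr1, Fcrls, Tmem119, C1qa, Itgam and Sall1 in each library, in TMM-scaled CPM (vertical axes, from 0), by group; lines are means and error bars are SDs. Itgam in adult antibiotics morphine lies at 1.99 to 3.89, below the 4.16 to 5.95 of adults on water with morphine, and the Sall1 value of 33.1 is adolescent water saline replicate 1.

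Of the 4 receptors for purines and chemokines, 3 fell with antibiotics. Besides Cx3cr1 these were P2ry13, an ADP receptor (-0.25, adjusted p = 0.0148), and Gpr34, a lysophosphatidylserine receptor (-0.23, adjusted p = 0.00721). P2ry12, the ADP receptor that steers microglial processes, was at -0.12 (SE 0.05, adjusted p = 0.0844). In adolescents it was at 35.3, 37.7, 46.1, 39.5 and 35.6 CPM on water with saline, 35.6, 32.7, 30.4, 33.3 and 30.6 CPM on water with morphine, 33.9, 37.1 and 35.2 CPM on antibiotics with saline and 30.5, 28.5, 31.3, 35.2 and 31.1 CPM on antibiotics with morphine. In adults, in the same order, it was at 29.5, 36.2 and 31.5 CPM, 31.7, 31.6, 31.4, 32 and 29.4 CPM, 32.4, 25.4, 34.3, 25.5 and 31.5 CPM and 28.1, 22.8, 32.3 and 27 CPM. The water and antibiotics libraries overlapped in each of the 4 strata.

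In the complement group C1qa (-0.19, adjusted p = 0.00314) and C1qb (-0.16, adjusted p = 0.00609) fell, while the third chain of the same protein, C1qc, was at -0.09 (adjusted p = 0.17). The 3 genes are neighbours on chromosome 4. In morphine-injected adults C1qa was at 34.8, 29.8, 33.2, 36.8 and 37.7 CPM on water and 31.4, 25.5, 28.8 and 24.9 CPM on antibiotics. In saline-injected adults it was at 32.8, 35.6 and 30.3 CPM on water and 34, 31.2, 30.8, 37.4 and 29.0 CPM on antibiotics. The groups overlapped in both, and among saline-injected adults the 2 ranges covered much the same values. C1qb ran from 28.4 to 38.4 CPM on water and from 26.7 to 37.2 CPM on antibiotics, and C1qc from 25.5 to 40.1 CPM and from 21.5 to 34.3 CPM. A difference between C1qa and C1qc in their response was not tested.

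Of the activating receptors and their adaptors, Trem2, a lipid-sensing receptor (-0.23, adjusted p = 0.00714), and Fcer1g, the common Fc receptor chain (-0.27, adjusted p = 0.018), fell. In adults Trem2 was at 9.15, 10.1 and 8.19 CPM on water with saline and 9.48, 6.79, 7.88, 8.26 and 7.85 CPM on antibiotics with saline, and these libraries overlapped. With morphine it was at 10.3, 8.56, 10.5, 8.69 and 8.9 CPM on water and 8.96, 6.64, 6.69 and 6.92 CPM on antibiotics, where only the highest antibiotics library reached the water range. Tyrobp, the adaptor of Trem2, was at -0.14 (adjusted p = 0.14) and the Fc receptor Fcgr3 at 0.04 (adjusted p = 0.728). Of the 7 pan-leukocyte and cytoskeletal genes 5 fell. They were Itgam (-0.32, adjusted p = 0.00415), Bin2, a membrane-bending protein (-0.40, adjusted p = 0.00493), Laptm5, a lysosomal membrane protein of blood cells (-0.15, adjusted p = 0.0113), Ly86, the partner of the Toll-like protein RP105 (-0.25, adjusted p = 0.0148), and the tetraspanin Cd53 (-0.25, adjusted p = 0.0469). Cd53 was lost in 23 of the 35 fits that left out a library, with an adjusted p of up to 0.104. Aif1, the cytoskeletal protein Iba1, was at -0.18 (adjusted p = 0.216) and Ptprc at -0.08 (adjusted p = 0.658).

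Of the 5 growth and identity factors only Csf1r was called, at -0.11 (adjusted p = 0.0269), a fall of 7.35%, and it did not pass without adult water saline replicate 3, adolescent antibiotics saline replicate 1 or adolescent antibiotics saline replicate 2 (adjusted p up to 0.0661). Csf1r ran from 83.7 to 115 CPM on water and from 79.6 to 106 CPM on antibiotics. The lineage factors Spi1 (-0.01, adjusted p = 0.952), Irf8 (-0.04, adjusted p = 0.819) and Sall1 (0.03, adjusted p = 0.804) and the receptor Tgfbr1 (-0.09, adjusted p = 0.205) did not pass. None of the 3 lysosomal members passed: Cd68, a scavenger receptor of lysosomes, was at 0.01 (SE 0.08), Ctss at -0.08 (SE 0.04) and Lgmn at -0.03 (SE 0.03). The member effects by role are plotted for the 3 averaged comparisons.

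**Figure D3:**
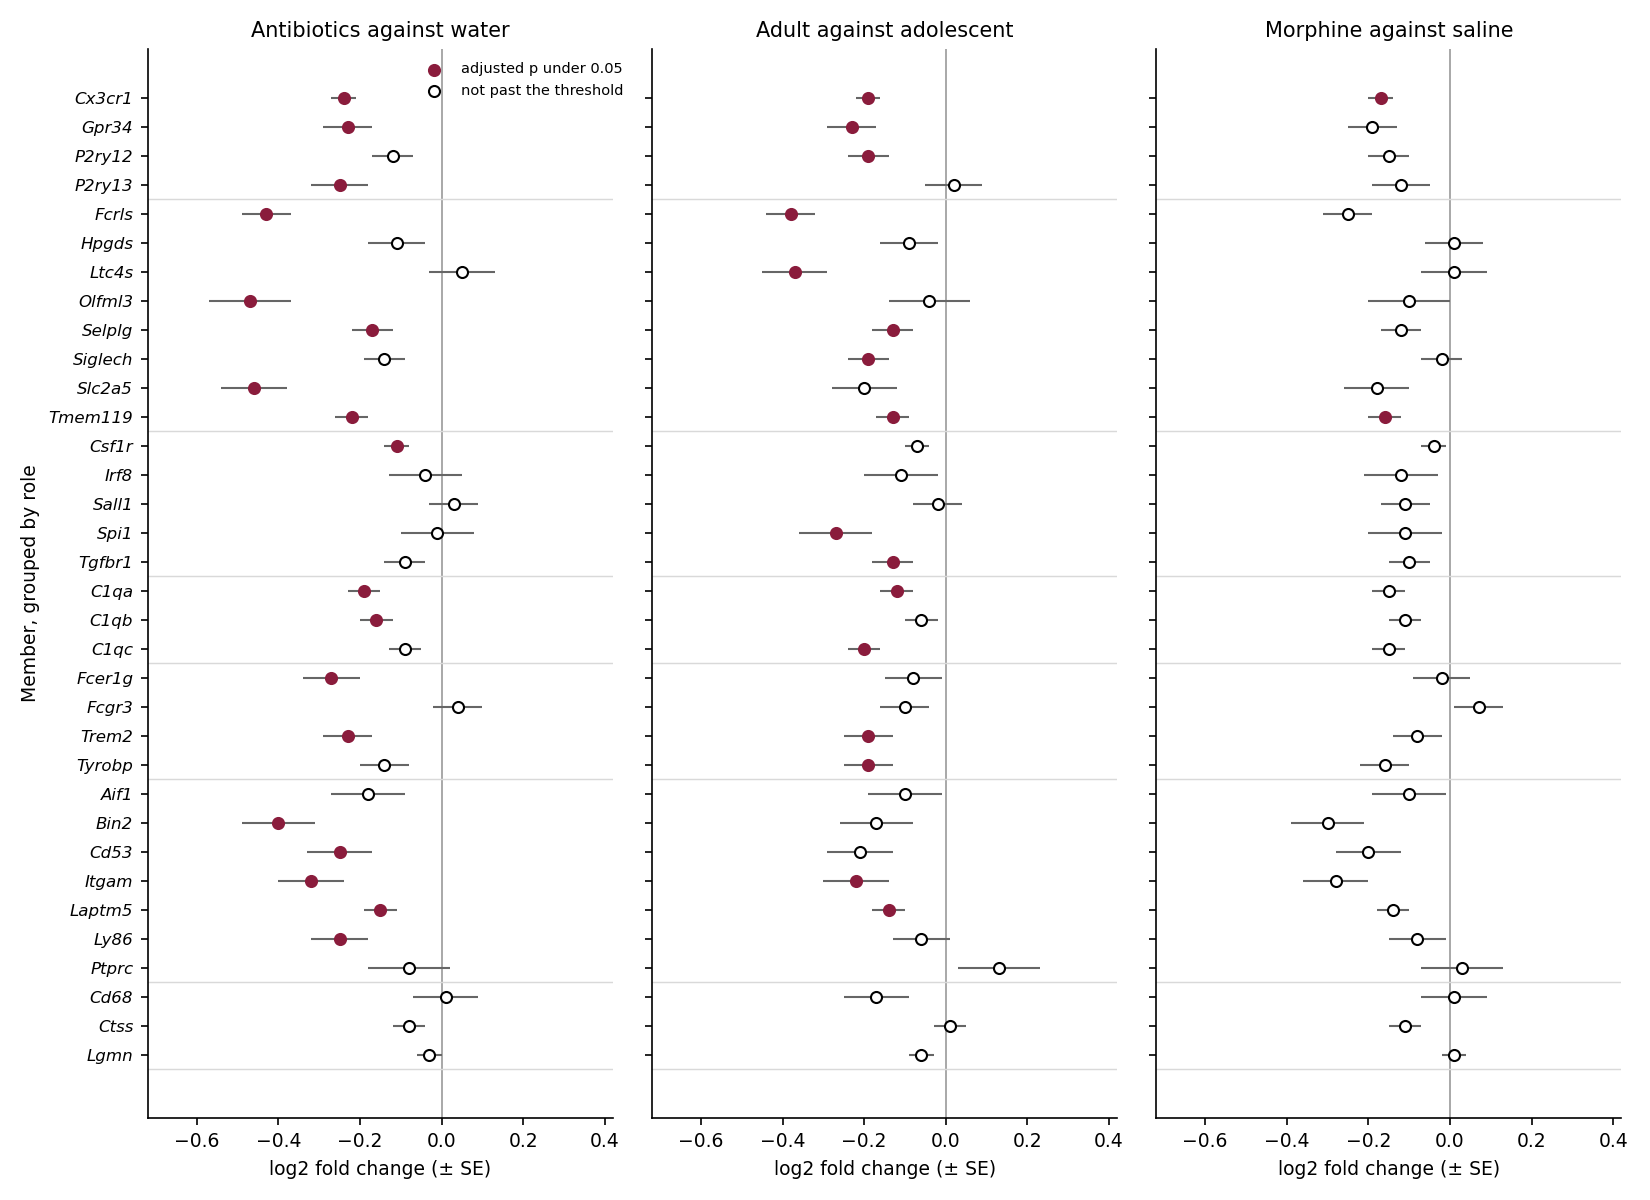
log2 fold change with its SE (horizontal axis) of each of the 34 members in the comparisons averaged over 4 strata, grouped by role from purine and chemokine receptors (top) to lysosomal proteins (bottom). Filled points have an adjusted p under 0.05: 18 with antibiotics, 16 with age and 2 with morphine, all at negative values.

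Taken by stratum, antibiotics had the most members past the threshold in morphine-injected adults. There 7 members were lower, against 1% of all genes called lower. They were Tmem119 (-0.38, adjusted p = 0.00513), Laptm5 (-0.39, adjusted p = 0.00548), Itgam (-0.75, adjusted p = 0.00576), Cx3cr1 (-0.31, adjusted p = 0.0074), Fcrls (-0.59, adjusted p = 0.00803), C1qb (-0.30, adjusted p = 0.0316) and C1qa (-0.32, adjusted p = 0.0347). Itgam was at 5.95, 4.16, 4.98, 5.90 and 5.19 CPM on water and 3.89, 1.99, 3.13 and 3.30 CPM on antibiotics, with no overlap. Its lowest value belongs to adult antibiotics morphine replicate 2, which also had the lowest summed level and the lowest mitochondrial share (4.013%) of all 35 libraries. In that group the replicates with summed levels of 520.4 and 546.8 CPM had mitochondrial shares of 4.013% and 4.38%, and those with 626.8 and 633.1 CPM had 4.838% and 5.28%. Without that replicate only Laptm5 passed, and a fit on the 2 compared groups alone called 2 members.

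In morphine-injected adolescents 2 members, Fcrls (-0.54, adjusted p = 0.00922) and Cx3cr1 (-0.24, adjusted p = 0.0394), were lower, against 0.626% of all genes. Without adolescent antibiotics morphine replicate 1 neither passed. Fcrls passed in the other 9 of 10 fits without a single library, while Cx3cr1 passed in 2 of 10 and was lost with no filter, with all 37 libraries and with the islet-read term. In saline-injected adolescents 0 of 34 passed, against 0.0103% of all genes. There 8 members and 1905 of the 19332 genes tested had an unadjusted p under 0.05. DESeq2 also called 0 members and limma-voom 1. The 3 smallest p-values were those of Slc2a5 (-0.61, adjusted p = 0.175), Gpr34 (-0.36, adjusted p = 0.273) and P2ry13 (-0.41, adjusted p = 0.3). In saline-injected adults 0 passed by edgeR, DESeq2 or limma-voom, against 0.031% of all genes by edgeR. There 4 members and 1694 of the 19332 genes tested had an unadjusted p under 0.05. Cx3cr1 (-0.24, adjusted p = 0.223), Bin2 (-0.59, adjusted p = 0.318) and Fcrls (-0.30, adjusted p = 0.505) came first. The members' median was -0.17 in saline-injected adolescents, -0.16 in morphine-injected adolescents, -0.04 in saline-injected adults and -0.27 in morphine-injected adults.

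Whether the antibiotic difference itself varied between strata was tested with interaction terms, and no member passed. For age by antibiotics 0 of 34 were called, against 0% of all genes. At an unadjusted p under 0.05 were 1 member (Cd68, 0.36, adjusted p = 0.941) and 950 of the 19332 genes tested. For antibiotics by morphine 0 were called, against 0.00517% of all genes. There 5 members and 1041 of the 19332 genes tested had an unadjusted p under 0.05. Laptm5 came first at -0.23 (SE 0.08, adjusted p = 0.822), followed by Fcrls (-0.28, SE 0.13, adjusted p = 0.903) and Itgam (-0.33, SE 0.15, adjusted p = 0.916). DESeq2 and limma-voom also called 0 members in both interactions.

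**Figure D4:**
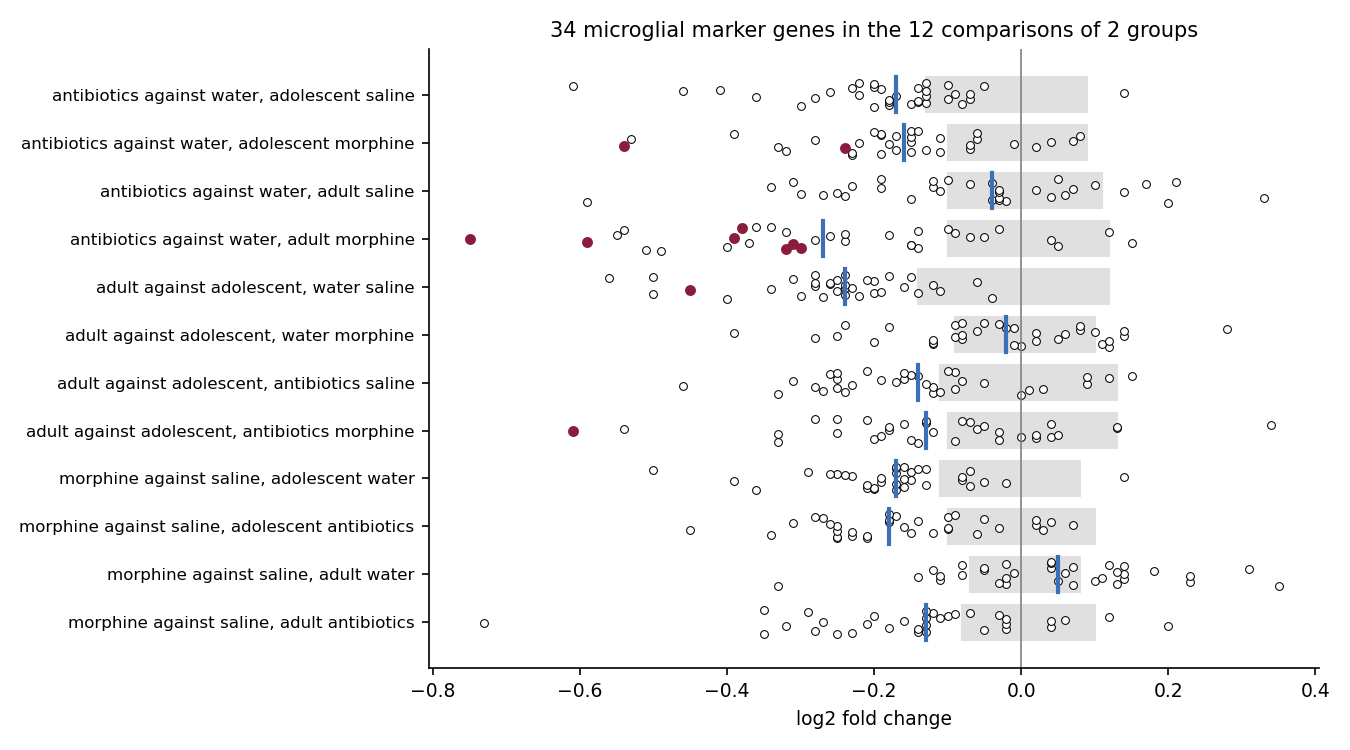
log2 fold changes (horizontal axis) of the 34 members in the 12 comparisons of 2 groups; each point is a gene, filled where the adjusted p was under 0.05, the vertical blue line is the members' median and the grey box spans the quartiles of all genes tested. The members' median lies at -0.27 for antibiotics in morphine-injected adults and at 0.05 for morphine in adults on water; comparisons that share a group are not independent.

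On average over the treatments, adults had lower levels of microglial markers than adolescents, with little difference in water morphine mice (members' median -0.02). Averaged over the 4 treatments 16 members were lower in adults and 0 higher, against 11.2% and 9.11% of all genes. The members' median was -0.13, a fall of 8.82%, against 0.00 for all genes with quartiles of -0.09 and 0.10. Leaving out each library in turn gave 11 to 18 members, with 17 without adolescent water saline replicate 1 and the fewest without adult antibiotics morphine replicate 2. Members below 0 in each of the 4 disjoint treatments numbered 17, where 18.5% of all genes were. This comparison draws on the same libraries as the averaged antibiotic comparison, so the values of both are given side by side and their overlap is not read as a result.

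With age Fcrls had the smallest adjusted p, at -0.38 (SE 0.06, adjusted p = 4.13e-05), beside -0.43 with antibiotics. Its level was 22.1 ± 4.65 CPM over the adolescents (SD, n = 18) and 16.9 ± 3.59 CPM over the adults (SD, n = 17). Cx3cr1 changed by -0.19 (adjusted p = 6.98e-05), from 46.2 ± 5.82 to 40.3 ± 4.55 CPM. C1qc, not called with antibiotics, was at -0.20 (adjusted p = 0.000571) with age. In adolescents on water with saline it was at 31.8, 40.1, 39, 32.7 and 33.7 CPM and in adults on water with saline at 29.7, 27.8 and 28.6 CPM, and these groups did not overlap. Ltc4s was at -0.37 with age (adjusted p = 0.00116), beside 0.05 with antibiotics. P2ry12 (-0.19, adjusted p = 0.0033), Gpr34 (-0.23, adjusted p = 0.00367), Siglech (-0.19, adjusted p = 0.00664) and Laptm5 (-0.14, adjusted p = 0.00877) were also lower in adults.

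Further members lower in adults were Tmem119 (-0.13), Trem2 (-0.19), Tyrobp (-0.19), Spi1 (-0.27), Itgam (-0.22), C1qa (-0.12), Selplg (-0.13) and Tgfbr1 (-0.13), with adjusted p-values from 0.0161 to 0.0347. Of these Itgam, C1qa, Selplg, Spi1 and Tgfbr1 were each lost in some of the fits without a single library, and adult antibiotics morphine replicate 2 was a library whose removal lost all 5. With a term for libraries with over 20 islet hormone counts, all adolescent, Itgam, Spi1 and Tgfbr1 did not pass, with adjusted p-values of up to 0.286. The other 11 passed in every fit run. Members that fell with antibiotics and were not called with age include Olfml3 (-0.04 with age, beside -0.47), P2ry13 (0.02, beside -0.25) and Slc2a5 (-0.20, adjusted p = 0.0773, beside -0.46). Differences between the age and antibiotic effects of a gene were not tested.

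By treatment, Fcrls alone was lower in adults among water saline mice (-0.45, adjusted p = 0.0496, against 1.92% of all genes called lower). There all 34 members had a fitted value below 0, with a median of -0.24. At an unadjusted p under 0.05 were 18 members and 3718 of the 19332 genes tested. Without adolescent water saline replicate 1, 5 members passed: Fcrls, C1qa, C1qc, Laptm5 and Slc2a5. Across the fits without a single library, 172 to 877 of all genes were called, beside 655 in the main fit. Fcrls did not pass in 7 of the 8 fits without a single library. Among antibiotics morphine mice Itgam alone was lower in adults (-0.61, adjusted p = 0.0293, against 1.13% of all genes), and it did not pass in 5 of 9 fits without a single library. Among water morphine mice 0 members passed, against 0.626% of all genes, and 0 passed by DESeq2 or limma-voom. At an unadjusted p under 0.05 were 3 members and 2277 of the 19332 genes tested. Ltc4s (-0.39, adjusted p = 0.278), Fcrls (-0.28) and Cx3cr1 (-0.12) came first. Among antibiotics saline mice edgeR called 0, against 1.39% of all genes, while DESeq2 and limma-voom called 2 members each. At an unadjusted p under 0.05 were 5 members and 2838 of the 19332 genes tested. Cx3cr1 (-0.25, adjusted p = 0.0562), Fcrls (-0.46, adjusted p = 0.063) and C1qc (-0.24, adjusted p = 0.163) came first there. The members' median was -0.02 in water morphine mice, with 13 members above 0. It was -0.14 in antibiotics saline mice (7 above 0) and -0.13 in antibiotics morphine mice (9 above 0).

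Morphine lowered 2 members on average over the 4 strata and raised 0, against 0.186% and 0.129% of all genes, of which 61 were called in all. Cx3cr1 was at -0.17 (SE 0.03, adjusted p = 0.0104) and Tmem119 at -0.16 (SE 0.04, adjusted p = 0.0489). Cx3cr1 stood at 45.9 ± 6.1 CPM over the saline libraries (SD, n = 16) and 41.2 ± 5.06 CPM over the morphine libraries (SD, n = 19), and these ranges overlapped widely. It did not pass without adolescent antibiotics saline replicate 5 (adjusted p = 0.0516), and Tmem119 passed in 11 of the 35 fits without a single library. The count was 0 without adolescent antibiotics saline replicate 5. Without adolescent water saline replicate 1 the count was 7, the added members being Itgam, Fcrls, C1qa, C1qc and Laptm5, and removal of adult antibiotics morphine replicate 3 gave 4. Across the fits without a single library, 14 to 251 of all genes were called, so the number of calls varied beyond the members too. The count was 5 by DESeq2 and 9 by limma-voom, whose calls over all genes are not given here. The members' median was -0.11, against 0.00 for all genes. At an unadjusted p under 0.05 were 17 members and 2120 of the 19332 genes tested. In all 4 strata 11 members were below 0, where 8.95% of all genes were.

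Within strata morphine called 0 members each time. In adolescents on water 0.331% of all genes were called. There 14 members had an unadjusted p under 0.05, as did 2249 of the 19332 genes tested, and DESeq2 called 1 member. Gpr34 came first (-0.39, SE 0.10, adjusted p = 0.0761), at 13, 14, 15, 13.1 and 12 CPM with saline and 9.97, 11.8, 9.08, 11.2 and 8.97 CPM with morphine. Every morphine library was below every saline library for Gpr34, although the adjusted p missed the threshold. In adolescents on antibiotics 0.0466% of all genes were called. There 8 members had an unadjusted p under 0.05, as did 1464 of the 19332 genes tested, and limma-voom called 1 member. Fcrls (-0.45, adjusted p = 0.268), Cx3cr1 (-0.23) and Laptm5 (-0.25) came first.

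In adults on antibiotics 0% of all genes were called. There 8 members had an unadjusted p under 0.05, as did 1524 of the 19332 genes tested. Itgam came first at -0.73 (SE 0.15, adjusted p = 0.116), from 5.06, 4.46, 6.30, 5.02 and 4.96 CPM with saline to the 1.99 to 3.89 CPM given above, with no overlap. Without adult antibiotics morphine replicate 3, 1 member passed. In adults on water 0% of all genes were called. There 0 members had an unadjusted p under 0.05, beside 559 of the 19332 genes tested. Of the 34 fitted values 20 were above 0, with a median of 0.05. DESeq2 and limma-voom called 0 in both adult strata. The age by morphine interaction was above 0 for 30 members (median 0.13), that is, the fitted morphine difference was less negative in adults. None of these 34 passed, against 0.00517% of all genes. There 4 members and 1222 of the 19332 genes tested had an unadjusted p under 0.05. The smallest adjusted p of a member was 0.669, for C1qb (0.21, SE 0.08).

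Of the 34, 9 members passed in none of the 3 averaged comparisons: Sall1, Aif1, Cd68, Ctss, Irf8, Ptprc, Fcgr3, Hpgds and Lgmn. Sall1, a transcription factor of microglial identity, ran from 16 to 22.7 CPM in 34 libraries and reached 33.1 CPM in adolescent water saline replicate 1, the library with striatal and myelin transcripts. Cd68 was at 8.04, 6.64, 8.64, 6.68 and 5.61 CPM in adolescents and 5.51, 4.02 and 5.59 CPM in adults on water with saline, groups that did not overlap, and ran from 3.76 to 8.64 CPM over all libraries. Aif1 ran from 2.52 to 5.95 CPM, with adult antibiotics morphine (2.52 to 4.12) lying below adult water morphine (4.14 to 5.5). A p that misses the threshold does not show that a level stayed the same.

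Within groups, the members tended to be high or low in the same libraries. After subtraction of the group means, the pairwise Pearson correlation of the members' log2 CPM over 35 libraries had a median of 0.31 over 561 pairs, from -0.36 to 0.79, and 90.6% of the pairs were above 0. The mean over members' pairs was 0.29, beside 0.00045 over all pairs of tested genes. Cx3cr1 followed the others most closely, with a median correlation of 0.47, and Bin2 (0.01) and Sall1 (-0.05) least. These are descriptions across libraries that differ in depth and, in adolescent water saline replicate 1, in striatal and myelin content. In the map of the 34 genes by library, adolescent water saline replicate 3 (836.8 CPM summed) and adult antibiotics morphine replicate 2 (520.4 CPM summed) are the extremes.

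**Figure D5:**
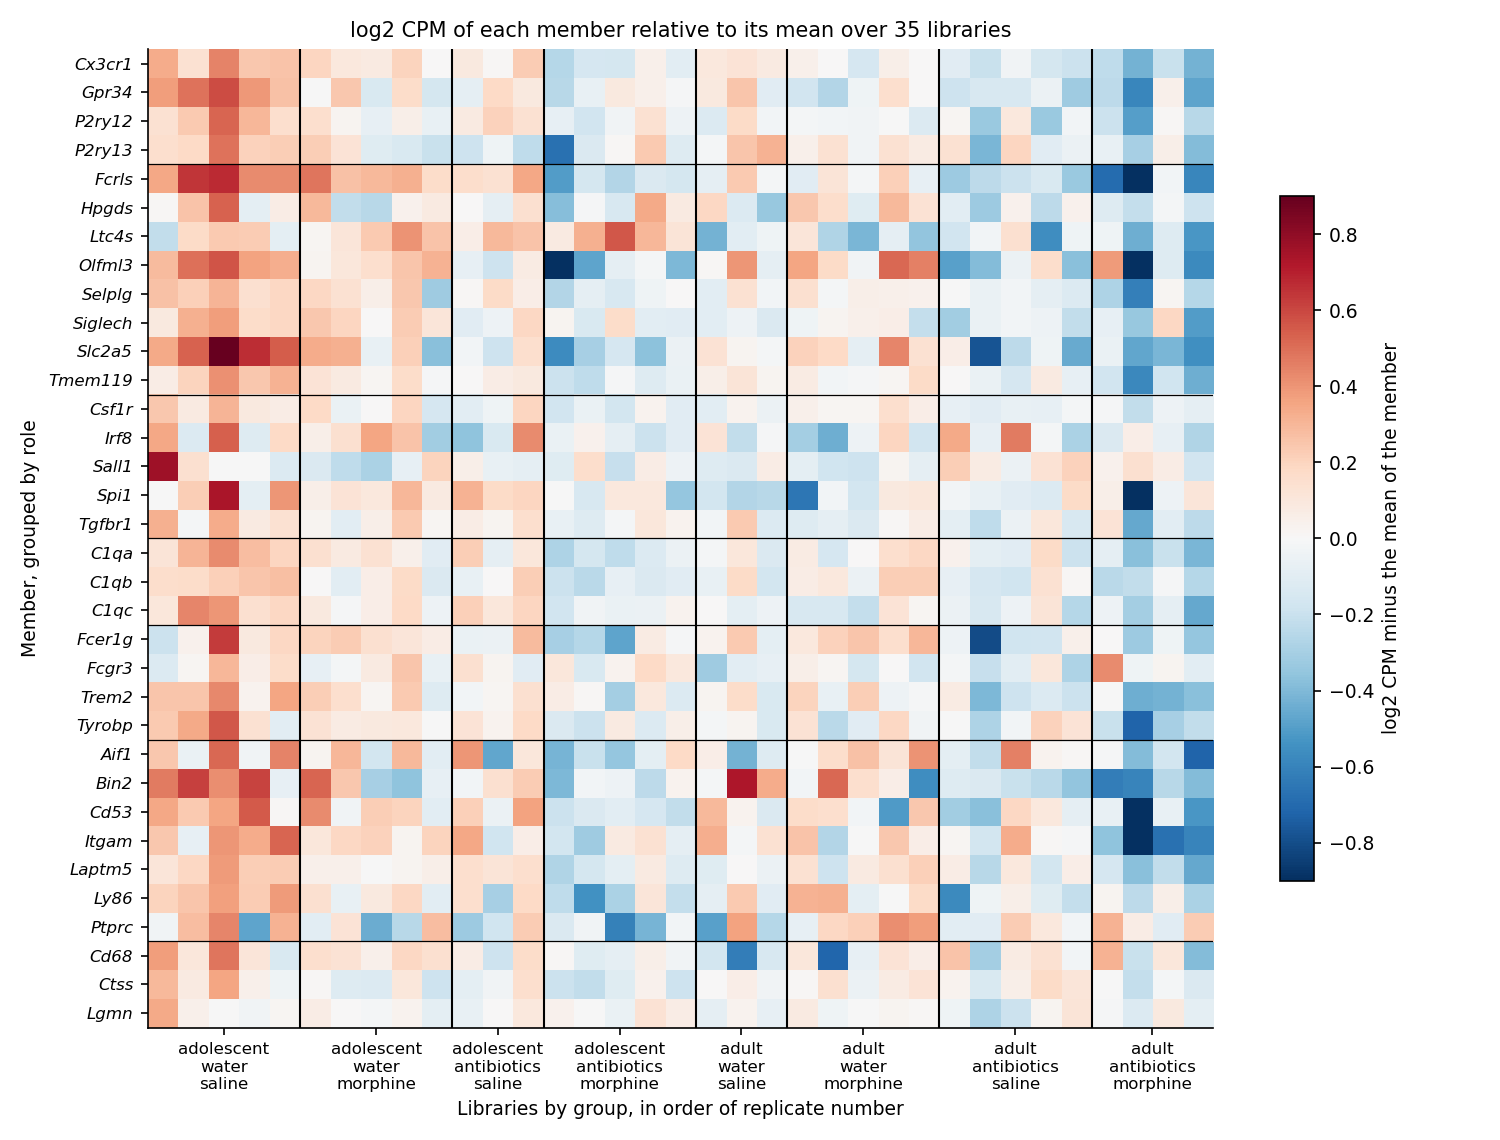
Map of log2 CPM of the 34 members (rows, by role) in 35 libraries (columns, by group), each relative to the mean of the gene; colours span -0.9 to 0.9 and values beyond are drawn at the ends. The adolescent water saline columns are mostly red (above the mean) and the adult antibiotics morphine columns mostly blue (below), while the Sall1 row is not.

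Markers of other macrophages and blood cells were set beside these results. Of 11 perivascular macrophage markers 9 passed the filter and 0 of the 9 were called in any of the 3 averaged comparisons. The median log2 fold change of these 9 was -0.17 with antibiotics, 0.15 with age and 0.10 with morphine, beside -0.15, -0.13 and -0.11 for the microglial markers. Their summed level was 31.6 ± 8.38 CPM on water (20.3 to 56.4, SD, n = 18) and 28.5 ± 7.1 CPM on antibiotics (20.3 to 48.7, SD, n = 17). Mrc1, a defining marker, was at 4.83 CPM on water and 4.21 CPM on antibiotics. The 10 neutrophil and monocyte markers summed to 0.781 ± 0.436 CPM on water and 0.545 ± 0.554 CPM on antibiotics, and S100a8 was at 0 counts in 23 of 35 libraries. Of 12 lymphocyte markers 2 passed the filter, and Cd3e was at 0 counts in 23 libraries. Trbc2 was lower in adults (-0.25, adjusted p = 0.0234). It ran from 11.6 to 28.3 CPM, where Cd3e, Cd3d and Cd3g reached at most 0.225, 0.0949 and 0.113 CPM. Whether Trbc2 follows lymphocytes here was not tested. None of the 5 tested red blood cell genes and none of the 12 myelin genes were called in the 3 averages. The part of other macrophages and of blood cells in the members' changes was not tested. The myelin markers summed to 4143 CPM over the adolescents, or 3166 CPM without adolescent water saline replicate 1, and 2519 CPM over the adults.

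Of 8 astrocyte markers 3 were lower with antibiotics: the water channel Aqp4 (-0.46, adjusted p = 3.05e-05) and the glutamate transporters Slc1a3 (-0.14, adjusted p = 0.00655) and Slc1a2 (-0.12, adjusted p = 0.0085). Their summed level was 4499 ± 258 CPM on water (3968 to 5007) and 4167 ± 204 CPM on antibiotics (3924 to 4725). The part of tissue composition in the members' fall was not tested. Of 8 cortical excitatory neuron markers, Tbr1 was higher (0.13, adjusted p = 0.0268), and of 10 endothelial and pericyte markers 0 were called. With age 1 astrocyte marker, Gja1, and 1 neuronal marker, Slc17a7, were lower. The endothelial and pericyte markers Rgs5 (-0.19, adjusted p = 0.00704) and Kdr (-0.26, adjusted p = 0.0314) were also lower in adults.

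Of 12 ligands and restraint signals of microglia, 2 fell with antibiotics, namely the Csf1r ligand Il34 (-0.14, adjusted p = 0.0289) and fractalkine, Cx3cl1 (-0.13, adjusted p = 0.0297). With age Cx3cl1 (-0.23, adjusted p = 5.18e-05), the restraint signal Cd200 (-0.16, adjusted p = 0.00123) and Il34 (-0.16, adjusted p = 0.00422) were lower in adults, and Smad3 was higher (0.14, adjusted p = 0.00436). The fractalkine receptor and its ligand were thus both lower with antibiotics and in adults.

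Among other genes of homeostatic microglia, Sparc, which other glia and vessels also express, rose with antibiotics (0.17, adjusted p = 0.0187). With age, genes of that list that were lower in adults included Sparc (-0.35), Adgrg1 (-0.17) and Vsir (-0.14), and the transcription factor Maf (0.15) was among those higher, though Maf did not pass without adolescent water saline replicate 1 (adjusted p = 0.0508). Of 12 tested complement genes beyond C1q, Itgb2, the integrin partner of Itgam, fell with antibiotics (-0.32, adjusted p = 0.00633), and the protease C1ra rose (0.41, adjusted p = 0.0262). Of 14 genes of Trem2 and Fc receptor signalling 0 were called with antibiotics, and Lcp2 (-0.35) and Inpp5d (-0.13) were lower in adults.

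Of 15 tested genes of disease-associated microglia, the lipase Lpl was lower with antibiotics (-0.26, adjusted p = 0.0162) and with morphine (-0.34, adjusted p = 0.0284), and 0 were higher in either. The filter on low counts removed Cst7, Clec7a, Itgax and Lgals3, so these could not be tested. With age Gpnmb (0.35, adjusted p = 0.00671) and B2m (0.16, adjusted p = 0.0371) were higher and Timp2, Cd52 and Ctsd lower, 5 of the 15 beside 20.3% of all genes called in either direction. Of 13 tested inflammatory and Toll-like receptor genes 0 were called in any of the 3 averages, with medians of -0.07 for antibiotics, 0.01 for age and 0.06 for morphine. Tnf, Il6, Il1b, Ccl2, Ccl3, Ccl4 and Cxcl10 did not pass the filter on low counts, so nothing is known here of their changes. Among lysosomal genes Hexa fell with antibiotics (-0.17, adjusted p = 0.000118) and Psap rose (0.07, adjusted p = 0.019). Of the 7 tested proliferation genes Cenpf was lower with antibiotics (-1.30, adjusted p = 0.0413) and Mki67 (-1.17), Top2a (-1.57) and Cdca8 (-0.42) were lower in adults. Adolescent water saline replicate 1 weighs on these folds, since its proliferation genes summed to 69.55 CPM against at most 13.11 CPM in the other adolescents. Without it, in a fit chosen after seeing the data, Cenpf was at -0.84 (adjusted p = 0.0133), Mki67 at -0.75 (adjusted p = 0.00302) and Top2a at -1 (adjusted p = 0.00404), and Cdca8 did not pass (-0.32, adjusted p = 0.0786). With morphine 1 homeostatic gene, Cst3, the abundant protease inhibitor cystatin C, was lower (-0.16, adjusted p = 0.0365).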

How the data were processed

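Polyadenylated RNA of 37 libraries in 8 groups was measured by RNA-seq. The authors deposited raw counts per gene and library, checked here to be whole numbers. Per the submitters' processing notes, the tools were STAR (2.7.10a) and DESeq2 and the build mm10, with no roles stated. Annotation release and strand setting: not given in the sources used here. Symbols came from GENCODE M21, which matched 52073 of 56980 identifiers, and the 4907 unmatched rows hold 3.86% of counts. Groups came from the labels. The 2 libraries under 1000000 counts were left out. The other 35 (10630727 to 31560468 counts) were fitted together in R 4.3.3 with edgeR 4.0.16 (TMM, filterByExpr with a minimum count of 10, robust quasi-likelihood fit, a mean per group), and p-values were adjusted by Benjamini-Hochberg over 19332 genes at 0.05. SEs are derived from the fold change and its F statistic. The test was tried on data with known answers. Any of the 34 members could be named, with values by library for 10 fixed members and for those past the threshold (up to 6 per comparison and direction by adjusted p; the 3 with the smallest p where none passed), and up to 4 called genes of each other list, some of which are not reported here. The members, lists and tests were chosen with earlier results of these data known. Alternatives used DESeq2 1.42.0, its size factors in edgeR, limma 3.58.1 (voom), no filter, all 37 libraries, the compared groups only, a replicate block, a term for libraries with over 20 islet hormone counts, and each library left out. Called genes of the other lists were also refitted without adolescent water saline replicate 1, an alternative chosen after seeing the data. Promoter sequences came from RefSeq (GRCm38.p6), matched by symbol. Depth and the number of libraries limit the precision: the least covered member had 1568 counts over the 35 libraries. No 2 libraries were identical.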

Additional observations from a re-analysis of the deposited data

Results flagged for a closer look

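In groups of 4 or 5 libraries, the gap between the highest or lowest library and its nearest neighbour was taken as a share of the range of the group (Dixon's 95% limit). Adult water saline and adolescent antibiotics saline, with 3 libraries each, were not checked. Of 174 values so checked (28 members and the summed level), 9 passed the limit, and chance flags about 1 in 20.

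The summed level of the 34 members was 578 CPM in adult antibiotics saline replicate 2, where the others had 633 to 655 CPM. Cx3cr1 was at 38.6 CPM in adult water morphine replicate 3 (others 43 to 44.6) and P2ry12 at 29.4 CPM in adult water morphine replicate 5 (others 31.4 to 32). Cd68 was at 3.76 CPM in adult water morphine replicate 2 (others 5.88 to 6.72). In adult antibiotics morphine, C1qb was at 31.6 CPM in replicate 3 (others 26.7 to 27.4) and Trem2 at 8.96 CPM in replicate 1 (others 6.64 to 6.92). P2ry13 was at 13 CPM in adolescent water saline replicate 3 (others 10.3 to 10.8), and Spi1 at 3.60 CPM in adolescent water morphine replicate 4 (others 3.05 to 3.19). Sall1 was at 33.1 CPM in adolescent water saline replicate 1 (others 17.9 to 21.5), the library that also stood apart in striatal and myelin transcripts.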

How the results depend on the processing

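Of the single-member values recomputed in other fits, none changed sign: 547 kept their side of the threshold, 24 lost it and 13 gained it, and with a library left out 1746, 125 and 2. Only members called in a comparison, or the 3 with the smallest p where none passed, were recomputed. That choice, and fits that share most libraries, make a stable sign likely beforehand. The count of 18 members lower with antibiotics was 16 to 20 with a library left out, and 16 members were called in every fit run. The count of 16 lower in adults was 11 to 18, with 11 called in every fit. The 2 lower with morphine were 0 to 7 with a library left out, 5 with DESeq2, 9 with limma-voom, and 1 each with DESeq2 size factors, no filter, all 37 libraries or the islet-read term. Calls over all genes also moved with a library left out. They were 1454 to 2510 for antibiotics, 3313 to 4878 for age and 14 to 251 for morphine. For antibiotics, the 7 members in morphine-injected adults were 1 to 8 with a library left out and 2 in the compared groups alone. The 2 in morphine-injected adolescents were 0 to 2, and 1 each with no filter, all 37 libraries or the islet-read term. In saline-injected adolescents limma-voom called 1 in place of 0. For age in water saline mice, the count of 1 was 0 to 5 with a library left out, 4 with DESeq2 or the islet-read term, 0 with DESeq2 size factors or the compared groups alone and 10 with limma-voom. In antibiotics saline mice the count of 0 was 2 with DESeq2, limma-voom or the islet-read term and 1 in the compared groups alone. In antibiotics morphine mice the count of 1 was 0 to 2, 3 with limma-voom and 0 with the islet-read term or the compared groups alone. For morphine, the count of 0 was 0 to 1 with a library left out in adolescents on water, where DESeq2 called 1, and 0 to 1 in adults on antibiotics. In adolescents on antibiotics it was 1 with limma-voom or the compared groups alone. The cause of these shifts was not tested. For the alternatives other than leaving out a library, calls over all genes are not given here. The member counts in those fits are therefore not set against a share of all genes.

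Replicate numbers did not pair the libraries: in 0 of 28 pairs of groups did every same-numbered pair correlate above 0.1, and 10 of 35 libraries correlated best with their own number. With the replicate block, the count for age was 3 in water saline mice (1 without it) and 2 in antibiotics saline mice (0 without it), and Csf1r and Cd53 were not called with antibiotics.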
